A study of Mus musculus with 12 samples.

Results

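The nuclear-encoded subunits of the respiratory chain and of ATP synthase were followed in whole mouse liver as 79 genes. Members were the rows of the count table whose symbol began with Nduf plus a, b, c, s or v and a digit, was Sdha, Sdhb, Sdhc or Sdhd, or began with Uqcr, with Cox and a digit from 4 to 8, or with Atp5. Names holding "-ps" were left out, and a mean of at least 1 CPM (counts scaled to equal library totals) over the 12 libraries was required. The names matched 102 of the 55401 rows, 89 of them without "-ps", and 79 reached the minimum. Of these, 37 belonged by name to complex I, 4 to complex II, 8 to complex III, 13 to complex IV and 17 to complex V, the ATP synthase. All 79 were among the 17585 genes that passed the filter on low counts and were tested.

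Total RNA of whole liver was sequenced in 4 groups of 3 male mice aged 7 to 10 weeks. The groups were FBXL5ΔDC livers 6 h after acetaminophen, control livers 6 h after acetaminophen, untreated FBXL5ΔDC livers (0 h) and untreated control livers (0 h). Every mouse carried Fbxl5F/F, a gene that Cre recombinase can delete, and FBXL5ΔDC mice carried Cd11c-Cre as well (Cd11c-Cre/Fbxl5F/F). FBXL5 is the iron-sensing part of a ubiquitin ligase that removes iron regulatory proteins, and Cd11c-Cre acts mainly in dendritic cells, a small share of a liver. The labels name doses of 300 or 500 mg/kg without assigning them to mice, describe a 16 h fast before the injection, and do not say whether untreated mice were fasted. They also do not say how litters or cages were spread, so p-values measure only the spread between these samples.

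Respiratory chain complexes hand electrons from NADH (complex I) and succinate (complex II) to ubiquinone, then through complex III and cytochrome c to oxygen at complex IV. Protons pumped on the way drive ATP synthesis in complex V, and hepatocytes depend on this chain for their energy. Complex II is wholly nuclear-encoded, while the others combine nuclear-encoded subunits with a few encoded in mitochondrial DNA. A reactive product of acetaminophen binds hepatocyte proteins, those of mitochondria among them, which makes this machinery a subject of its own in the injury.

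Total counts ran from 67173096 to 72512319 per library. Fbxl5 itself was not called between genotypes in whole liver, with 18.6 ± 5.25 CPM against 15.8 ± 3.01 CPM in controls at 6 h, and 17.2 ± 5.99 CPM against 20.1 ± 2.27 CPM at 0 h (SD, n = 3 each). The 6 dendritic cell markers together made up 4.12 to 7.38 CPM in any library, so a deletion in those cells could not be read from whole liver. All 6 hepatocyte markers were abundant, with sums of 72038 to 146600 CPM. The 6 genes that mark muscle summed to at most 0.477 CPM and the 4 that mark brown fat to at most 0.443 CPM, with Ckm, Mb, Myh4, Myh6 and Ucp1 at 0. Control replicate 3 at 6 h stood apart over all genes. Its Krt8, a keratin of injured hepatocytes, was at 4056 CPM against 519 and 377 CPM in the other control livers at 6 h, and counts and medians of the members are also given without it.

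Levels can be compared between genes only per length, and for that purpose counts were divided by the union of a gene's exons and scaled to the same total in each library (TPM). On this scale Cox6a1, the ubiquitous form of a complex IV subunit, was the most abundant member in each group. It had 807 ± 11.5 TPM in FBXL5ΔDC livers at 6 h, 834 ± 73.2 TPM in control livers at 6 h, 776 ± 21.0 TPM in FBXL5ΔDC livers at 0 h and 1002 ± 60.6 TPM in control livers at 0 h (SD, n = 3 each). The catalytic ATP synthase subunits Atp5a1 (alpha) and Atp5b (beta) followed, with 602 ± 12.8 and 541 ± 19.4 TPM in FBXL5ΔDC livers at 6 h and 643 ± 37.7 and 594 ± 7.69 TPM in control livers at 0 h. Cox4i1 and Cox8a, further complex IV subunits, had 488 ± 33.5 and 424 ± 11.5 TPM in FBXL5ΔDC livers at 6 h. Cox6a1 exceeded the rest by more than the spread between replicates, while the order of Cox4i1 and Cox8a differed between groups. This ranking depends on the union exon lengths, 702 bases for Cox6a1 and 4237 bases for Atp5b. By counts Atp5b was the highest member. The lowest levels per length were those of Cox6b2 at 3.01 ± 1.04 TPM and Ndufb2 at 11.79 ± 1.12 TPM in FBXL5ΔDC livers at 6 h. Ndufb2 has a union length of 5628 bases and shares exon sequence with Gm42420 on the same strand, so its low level per length depends on that length. Over the 79 genes, which share their lengths, the rank correlation of levels was 0.990 between FBXL5ΔDC livers at 6 h and 0 h, 0.993 between genotypes at 6 h and 0.992 between control livers at 6 h and 0 h. TPM carries no further scaling between libraries and is not used here to compare groups.

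Where complex IV has tissue isoforms, the ubiquitous or liver form carried the signal. Cox4i1, the common form of subunit 4, averaged 366 CPM over all libraries, while its lung form Cox4i2 had 3 counts in the 12 libraries together. Cox6a1 averaged 286 CPM and the heart and muscle form Cox6a2 had 6 counts in all. For subunit 7a, Cox7a2 averaged 91.1 CPM and the heart and muscle form Cox7a1 0.523 CPM. Cox8a averaged 140 CPM, whereas the muscle form Cox8b, the testis form Cox8c and Cox7b2 had 0 counts in every library, which allows up to 0.0447 CPM in a library. The 3 genes of the ATP synthase c-ring encode the same mature protein with different import sequences. Per length, in FBXL5ΔDC livers at 6 h, Atp5g3 had 282 ± 10.1 TPM, Atp5g2 76.9 ± 7.77 TPM and Atp5g1 41.8 ± 2.92 TPM. Their union exon lengths were 2181, 1675 and 4912 bases in that order, and the order of levels depends on these lengths. The members nearest to the 1 CPM minimum were Cox6b2 (1.30 CPM), Cox6c2 (2.53 CPM) and Ndufb4c (3.42 CPM). Just under it lay Ndufs6b (0.624 CPM), Cox7a1 and Ndufa4l2 (0.485 CPM). Their names matched and they were tested, but none was called in any comparison.

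At 6 h after acetaminophen few of the subunit genes were called, where a call is one by edgeR unless another tool is named. In FBXL5ΔDC livers 2 of 79 were called, Atp5g1 higher and Ndufa6 lower (edgeR, adjusted p below 0.05), against a background of 30.1% of all tested genes (15% higher and 15.1% lower). In control livers 1 of 79 was called, Ndufa6 lower, and none was higher, against a background of 10.6% (6.36% higher and 4.2% lower). Without correction, 3 members were higher and 2 lower at p below 0.05 in FBXL5ΔDC livers. In control livers 19 were lower and 0 higher without correction. Of all 17585 tested genes, 3565 were higher and 3532 lower at that level in FBXL5ΔDC livers. In control livers 2533 were higher and 1813 lower. DESeq2 called 1 member higher and 1 lower in FBXL5ΔDC livers, the same genes, where it called 16.7% of genes higher and 16.2% lower. In control livers it called 7 members lower (Atp5j, Cox7c, Ndufa6, Ndufa7, Ndufs5, Ndufv3 and Sdha), or 8.86%, near the 7% of all genes that it called lower there. DESeq2 percentages are of the genes it gave an adjusted p. Without FBXL5ΔDC replicate 3 at 6 h, edgeR called 5 members higher in FBXL5ΔDC livers (6.33%, against 11.3% of genes).

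The intervals were narrow enough to bound the changes. For 78 of 79 members (98.7%) the 95% interval of the log2 change, 6 h minus 0 h, lay within 1 in either direction in each genotype, so that a 2-fold change lay outside it. This was so for 34.3% of all tested genes in FBXL5ΔDC livers and 42.4% in control livers. The exception was Cox6b2, the low testis form of a complex IV subunit, with intervals of -0.32 to 1.69 in FBXL5ΔDC livers and -1.85 to 0.17 in control livers. The median SD of log2 CPM between replicates was 0.199 for members and 0.307 for all tested genes in FBXL5ΔDC livers at 6 h. In control livers at 6 h these were 0.141 and 0.426. Members had to reach a mean of 1 CPM, whereas tested genes had only to pass the filter on low counts. Neither the intervals nor these SDs were compared with genes of similar level, so they are not a trait of the members alone.

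Medians over the members had opposite signs in the genotypes. The median log2 change of the 79 members was 0.10 in FBXL5ΔDC livers, with 60 above 0, and -0.22 in control livers, with 77 below 0. The medians of all tested genes were 0.02 and 0.03, with 8948 of 17585 above 0 in FBXL5ΔDC livers and 8363 below 0 in control livers. Members shifted together within a library, so their signs are not independent counts. The SD between replicates of the per-library median over members, pooled over the groups, was 0.12. Atp5g2 and Ndufa12 were the members above 0 in control livers. The difference between the responses, tested as an interaction, had a median of 0.32 over the members and was above 0 for 77 of them, all but Ndufs7 and Ndufs8. No member was called in the interaction by edgeR (background 0.29% of tested genes, 0.0341% positive) or by DESeq2, and 18 had an unadjusted p below 0.05, all positive. Of all 17585 tested genes, 8614 had an interaction above 0. At an unadjusted p below 0.05, 914 of them were positive and 1629 negative. With no scaling factor between libraries these medians were 0.03 in FBXL5ΔDC livers, -0.21 in control livers and 0.24 for the interaction, so the signs over all members did not turn. Without control replicate 3 at 6 h the control median was -0.27 with 1 member called and the interaction median 0.35 with none called. The FBXL5ΔDC median depended on single libraries, and was 0.07, 0.03 and 0.20 without 6 h replicates 1, 2 and 3.

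**Figure D1:**
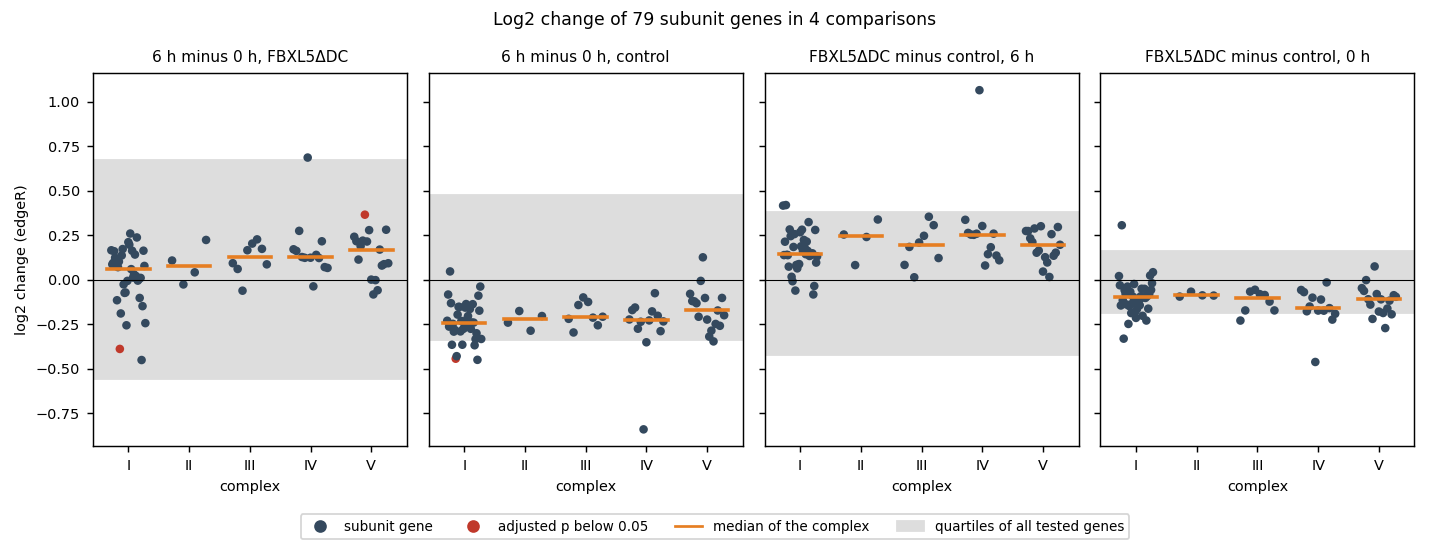
Log2 change of the 79 subunit genes (y axis) by complex (x axis) in 4 comparisons, with 1 point per gene (red where adjusted p was below 0.05), the median of each complex as a bar and the quartiles of all tested genes as a grey band. The members sit near 0 within or close to the band, mostly above 0 in FBXL5ΔDC livers after acetaminophen, where the median is 0.10, and below 0 in control livers, where it is -0.22.

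Summed per library, the transcripts of each complex showed the same small shifts. Complex I sums were 2565, 2736 and 2140 CPM in FBXL5ΔDC livers at 6 h and 2445, 2354 and 2452 CPM in FBXL5ΔDC livers at 0 h. They were 2313, 2034 and 2255 CPM in control livers at 6 h and 2420, 2660 and 2673 CPM in control livers at 0 h. FBXL5ΔDC replicate 3 at 6 h was the lowest of its group in every complex, and the FBXL5ΔDC libraries of 6 h and 0 h overlapped, whereas all control libraries of 6 h lay below those of 0 h for complex I. Complex II varied least in control livers at 6 h, with 743, 744 and 740 CPM in control livers at 6 h against 829, 894 and 888 CPM at 0 h. In FBXL5ΔDC livers complex II summed to 881, 954 and 793 CPM at 6 h and 849, 789.7 and 818 CPM at 0 h. For complex V the sums were 4170, 4571 and 3627 CPM in FBXL5ΔDC livers at 6 h and 3678, 3555 and 3579 CPM at 0 h, against 3505, 3274 and 3677 CPM in control livers at 6 h and 3522, 3974 and 3937 CPM at 0 h. Control replicate 3 at 6 h was the highest of its group for complex V and in the middle for complex I. As a share of all counts, with no scaling, the 79 genes held 0.946 ± 0.0406% in FBXL5ΔDC livers at 6 h, 0.946 ± 0.0464% in control livers at 6 h, 0.905 ± 0.0209% in FBXL5ΔDC livers at 0 h and 1.07 ± 0.0350% in control livers at 0 h (SD, n = 3 each). In whole liver, fewer cells of a type and less RNA per cell cannot be told apart.

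**Figure D2:**
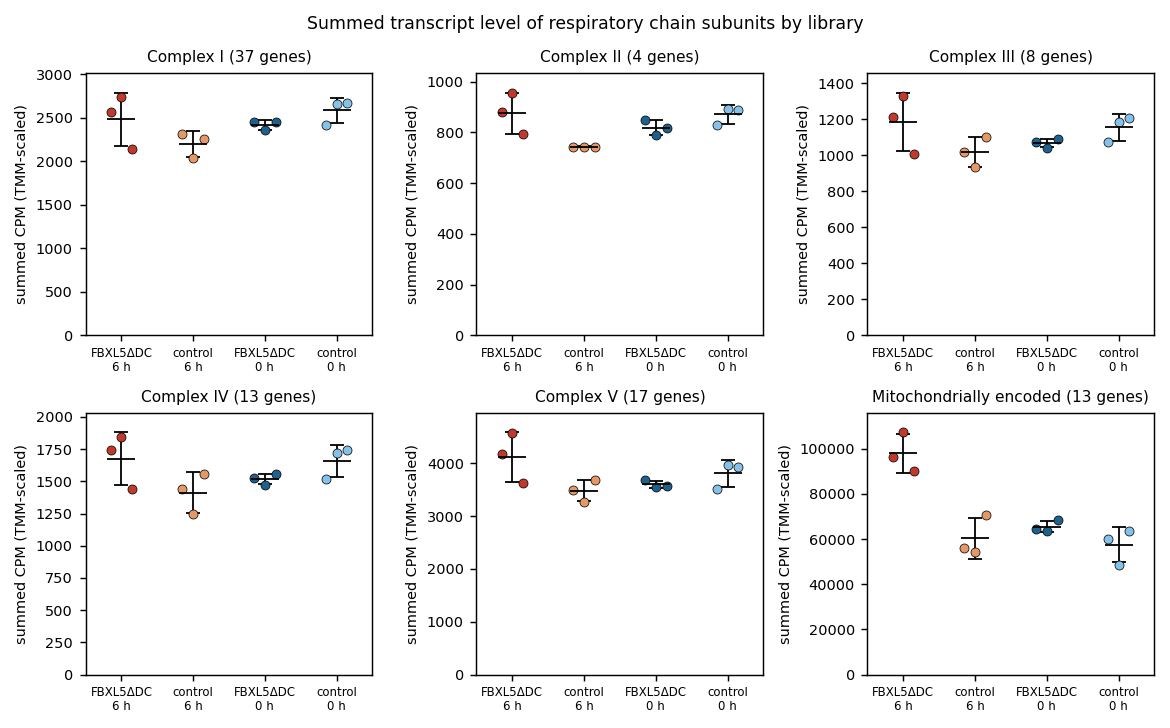
Summed CPM (y axis, scaled with TMM factors) of the subunit genes of each complex and of the 13 mitochondrially encoded subunits, with 1 point per library and the mean with its SD, for 4 groups (x axis). Replicate 3 of FBXL5ΔDC livers at 6 h is the lowest of its group in all 5 complexes, and the mitochondrially encoded sums of FBXL5ΔDC livers at 6 h, 90240 to 107450 CPM, lie above all other libraries.

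Complex I takes electrons from NADH through a peripheral arm of 7 nuclear-encoded core subunits, held by accessory subunits. Its 37 members had a median log2 change of 0.06 in FBXL5ΔDC livers, or -0.01 with no scaling factor, and -0.24 in control livers. The core subunits alone had medians of 0.02 and -0.17, and the 30 accessory subunits 0.06 and -0.26. Ndufa6, an accessory subunit of the LYR protein family that sits on the peripheral arm, was the member lowered in both genotypes. It lies on the minus strand of chromosome 15 (GRCm38, chr15:82350140-82354322; ENSMUSG00000022450.6), with no exon shared with another gene. Its levels were 73.4, 75.5 and 61.8 CPM in FBXL5ΔDC livers at 6 h against 93.4, 90.1 and 92.4 CPM at 0 h, and 74.8, 66.3 and 67.2 CPM in control livers at 6 h against 88.5, 89.1 and 106 CPM at 0 h. All libraries of 6 h lay below all libraries of 0 h in both genotypes. The log2 change was -0.39 ± 0.12 (SE) in FBXL5ΔDC livers (edgeR, adjusted p = 0.0228) and -0.44 ± 0.12 in control livers (adjusted p = 0.0299), and the interaction was 0.06 ± 0.16 (adjusted p = 0.919). Both calls were close to the threshold. In control livers the edgeR adjusted p was 0.0661 without 6 h replicate 2, and 0.0538, 0.0661 and 0.127 without 0 h replicates 1, 2 and 3. In FBXL5ΔDC livers it was 0.0787 without 6 h replicate 3, and 0.0716, 0.0572 and 0.0680 without 0 h replicates 1, 2 and 3.

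The 250 bases before the Ndufa6 start in RefSeq (GRCm38.p6, chr15:82354292-82354541, minus strand) are shown because this was the member that fell in both genotypes. None of the motifs searched in the members' promoters occurs in them, so no base is in capitals.
Ndufa6: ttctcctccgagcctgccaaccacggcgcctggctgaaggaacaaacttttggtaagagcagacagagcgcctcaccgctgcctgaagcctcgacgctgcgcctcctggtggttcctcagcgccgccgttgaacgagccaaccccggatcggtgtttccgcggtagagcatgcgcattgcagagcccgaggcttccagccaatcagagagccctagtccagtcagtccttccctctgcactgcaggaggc

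A handful of complex I genes lay lower at 6 h in both genotypes without an edgeR call. Ndufs7, the core subunit that holds the last iron-sulfur cluster before ubiquinone, had 66.8, 70.8 and 49.3 CPM in FBXL5ΔDC livers at 6 h against 91.8, 82.0 and 82.0 CPM at 0 h. In control livers it had 83.1, 64.6 and 50.4 CPM at 6 h against 82.0, 94.5 and 94.2 CPM at 0 h. The FBXL5ΔDC libraries did not overlap and the control libraries did, with log2 changes of -0.45 ± 0.18 in each (edgeR, adjusted p = 0.0736 and 0.132). Ndufv3, a small accessory subunit of the NADH-binding module, had 41.7, 42.6 and 34.4 CPM in FBXL5ΔDC livers at 6 h against 44.7, 47.9 and 48.0 CPM at 0 h. It had 37.2, 35.1 and 36.0 CPM in control livers at 6 h against 40.1, 47.8 and 48.6 CPM at 0 h. Neither genotype overlapped between times, and the log2 changes were -0.24 ± 0.12 and -0.33 ± 0.12 (edgeR, adjusted p = 0.145 and 0.0965). Ndufs5 and Ndufb3, accessory subunits, also had all FBXL5ΔDC libraries of 6 h below those of 0 h, with log2 changes of -0.10 and -0.26. These 5 genes were the only members in that position (6.33%, against 24.5% of all tested genes), and all belong to complex I.

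Ndufa12, an accessory subunit of the peripheral arm, was uneven between replicates. Its levels were 17.9, 21.7 and 25.8 CPM in FBXL5ΔDC livers at 6 h and 14.8, 13.8 and 29.97 CPM at 0 h. The row Ndufa12-ps, left out by its name, ran the other way with 26.0, 22.5 and 12.9 CPM at 6 h and 19.0, 20.0 and 7.93 CPM at 0 h. Summed, the pair gave 43.9, 44.2 and 38.6 CPM in FBXL5ΔDC livers at 6 h and 33.8, 33.8 and 37.9 CPM at 0 h, without the high replicate. How counts were split between these rows was not tested. Another row left out by its name, Cox5b-ps, averaged 7.06 CPM, and Ndufb1-ps averaged 13.96 CPM.

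Complex II oxidises succinate, as an enzyme of the citric acid cycle too. Its 4 members had a median log2 change of 0.07 in FBXL5ΔDC livers and -0.22 in control livers. Sdha, the flavoprotein that binds succinate, had 396.5, 449.5 and 389 CPM in FBXL5ΔDC livers at 6 h against 379, 379 and 389 CPM at 0 h. Control livers had 333, 346 and 357 CPM at 6 h against 400.1, 422 and 403 CPM at 0 h. Libraries of 6 h lay above those of 0 h in FBXL5ΔDC livers by a narrow margin and below them in control livers. The log2 changes were 0.11 ± 0.10 and -0.24 ± 0.10 (edgeR, adjusted p = 0.466 and 0.154), and the interaction was 0.35 ± 0.14 (adjusted p = 0.289). Sdhd, a membrane anchor that carries heme and the ubiquinone site with Sdhc, had log2 changes of 0.22 ± 0.11 in FBXL5ΔDC livers and -0.20 ± 0.11 in control livers. Sdhb, which holds the iron-sulfur clusters, had -0.03 ± 0.13 and -0.18 ± 0.13, and neither gene was called.

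Complex III passes electrons from ubiquinol to cytochrome c. Its 8 members had a median log2 change of 0.13 in FBXL5ΔDC livers and -0.21 in control livers, with none called. Uqcrfs1, the Rieske iron-sulfur protein, had 230.4, 252 and 186 CPM in FBXL5ΔDC livers at 6 h against 197, 184 and 190.4 CPM at 0 h. Control livers had 168, 177 and 178 CPM at 6 h against 186, 211 and 209.7 CPM at 0 h. FBXL5ΔDC livers overlapped between times and control livers did not, with log2 changes of 0.23 ± 0.12 and -0.21 ± 0.12 (edgeR, adjusted p = 0.180 and 0.306). Uqcrc1, a core protein and the most abundant member of complex III by counts, had 259, 302.5 and 214 CPM in FBXL5ΔDC livers at 6 h and 232, 223 and 236 CPM at 0 h. It had 223, 206 and 242 CPM in control livers at 6 h and 216, 257 and 246 CPM at 0 h, so that all 4 groups overlapped.

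Complex IV reduces oxygen, with its catalytic core encoded in mitochondrial DNA and the 13 members here around it. Their median log2 change was 0.13 in FBXL5ΔDC livers and -0.23 in control livers. Cox4i1, which binds the regulatory nucleotides ATP and ADP, had 423, 469 and 332 CPM in FBXL5ΔDC livers at 6 h against 365, 354 and 369 CPM at 0 h. Control livers had 314, 289 and 367 CPM at 6 h against 345, 409 and 378 CPM at 0 h. Both genotypes overlapped between times, and the log2 changes were 0.17 ± 0.14 and -0.22 ± 0.14 (edgeR, adjusted p = 0.403 and 0.371). Cox5b, a zinc-binding subunit, had 95.1, 99.1 and 87.8 CPM in FBXL5ΔDC livers at 6 h, all above the 75.4, 81.4 and 76.4 CPM at 0 h, and a log2 change of 0.27 ± 0.11 (adjusted p = 0.0897). Ndufa4, named for complex I but since assigned to complex IV, had a log2 change of 0.07 ± 0.15 in FBXL5ΔDC livers and -0.29 ± 0.15 in control livers.

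Complex V turns the proton gradient into ATP with a rotating c-ring and central stalk below a catalytic F1 head. Its 17 members had the highest median in FBXL5ΔDC livers, 0.17, and -0.17 in control livers. Within it the c-ring genes had a median of 0.28 in FBXL5ΔDC livers, the F1 head and central stalk 0.22, the other membrane subunits 0.08 and the peripheral stalk 0.05. In control livers these medians were -0.01, -0.12, -0.26 and -0.21 in the same order of parts. Atp5b, the catalytic beta subunit and the member with most counts, had 1212, 1344 and 1125 CPM in FBXL5ΔDC livers at 6 h, all above the 1088, 1026 and 1056 CPM at 0 h. In control livers it had 1002, 959 and 1085 CPM at 6 h, overlapping with the 1045, 1139 and 1127 CPM at 0 h. The log2 changes were 0.22 ± 0.11 and -0.12 ± 0.11 (edgeR, adjusted p = 0.163 and 0.566). Atp5j, coupling factor 6 of the peripheral stalk, fell short of the threshold in control livers, where its 95.3, 96.2 and 98.3 CPM at 6 h lay below the 116, 118 and 127 CPM at 0 h (log2 change -0.32 ± 0.10, edgeR, adjusted p = 0.0566). Atp5j shares exon sequence with Gabpa on the other strand, and without a stated strand setting their counts cannot be told apart.

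Atp5g1, 1 of 3 genes for the c-ring subunit, was the single member called higher. It lies on the minus strand of chromosome 11 (GRCm38, chr11:96068852-96075670; ENSMUSG00000006057.15), with no exon shared with another gene. Its levels were 121, 112 and 97.0 CPM in FBXL5ΔDC livers at 6 h, all above the 85.7, 81.2 and 89.3 CPM at 0 h. Control livers had 105, 95.5 and 96.7 CPM at 6 h and 95.7, 96.7 and 106 CPM at 0 h, with full overlap. The log2 change was 0.37 ± 0.11 in FBXL5ΔDC livers (edgeR, adjusted p = 0.0241) and -0.01 ± 0.11 in control livers (adjusted p = 0.983), and the interaction of 0.37 ± 0.16 was not called (adjusted p = 0.300). The untreated FBXL5ΔDC livers were low for this gene, below all untreated control livers. The call in FBXL5ΔDC livers was lost without 6 h replicate 1 or 2 (adjusted p = 0.113 and 0.0635) and without 0 h replicate 1, 2 or 3 (0.0742, 0.103 and 0.0545). It was also lost with no filter on low counts (0.0517) and with no scaling factor (0.0597). Atp5g2 and Atp5g3 had log2 changes of 0.21 ± 0.15 and 0.28 ± 0.14 in FBXL5ΔDC livers and 0.13 ± 0.15 and -0.10 ± 0.14 in control livers, and neither was called.

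The 250 bases before the RefSeq start of Atp5g1 (GRCm38.p6, chr11:96075632-96075881, minus strand) are shown for the member called higher, and again hold none of the motifs searched.
Atp5g1: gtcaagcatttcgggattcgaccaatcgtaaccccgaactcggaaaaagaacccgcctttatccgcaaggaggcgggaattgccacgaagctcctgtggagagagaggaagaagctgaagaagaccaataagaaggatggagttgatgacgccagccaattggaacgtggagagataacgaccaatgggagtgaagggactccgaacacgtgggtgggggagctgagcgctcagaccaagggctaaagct

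**Figure D3:**
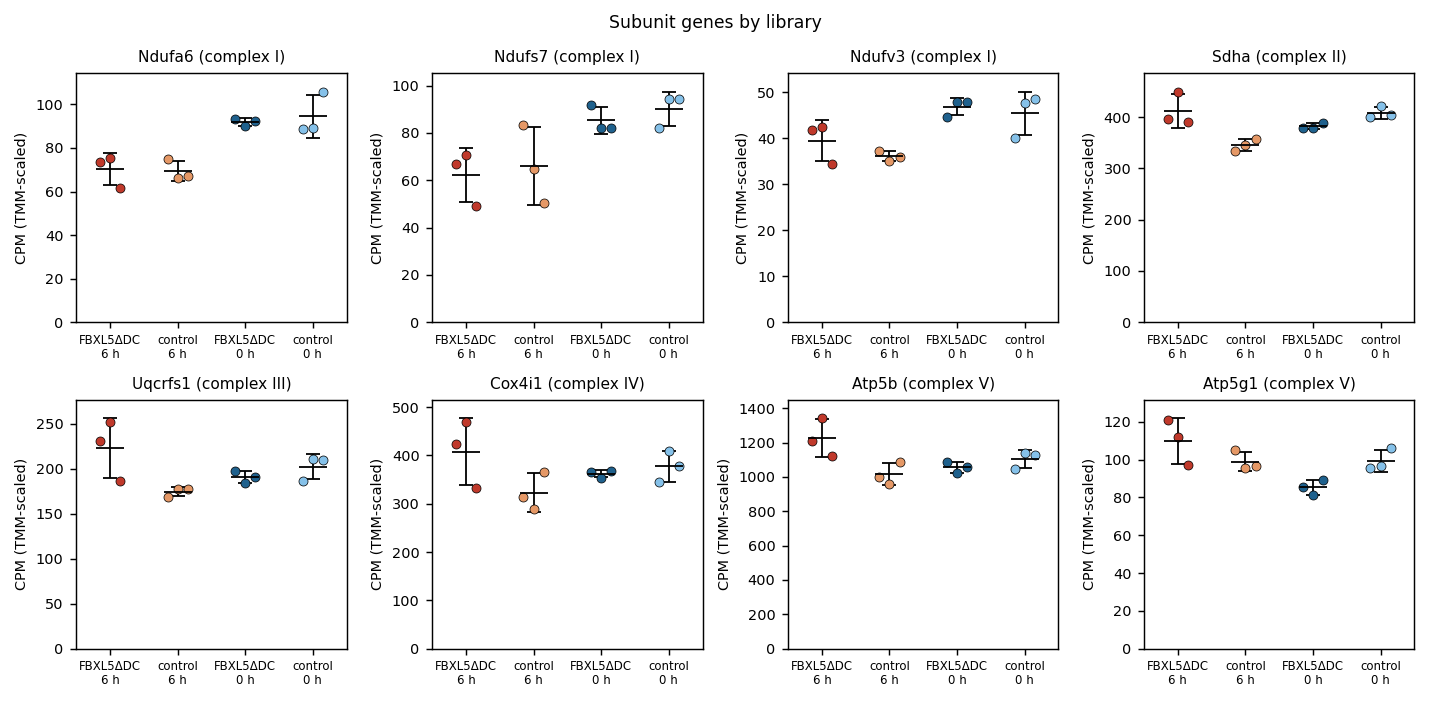
CPM (y axis, scaled with TMM factors) of 8 subunit genes in each library, with the mean and SD of each of 4 groups (x axis). Ndufa6 sits lower at 6 h than at 0 h in both genotypes without overlap. Atp5g1 is higher at 6 h than at 0 h in FBXL5ΔDC livers without overlap, while its control libraries overlap between times. Whether the libraries of 6 h and 0 h overlap differs between genes and genotypes.

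Iron-sulfur clusters, cofactors whose assembly depends on mitochondrial iron, are carried by 7 members (Ndufs1, Ndufs7, Ndufs8, Ndufv1, Ndufv2, Sdhb and Uqcrfs1). None was called by edgeR in any comparison, and DESeq2 called Uqcrfs1 higher in FBXL5ΔDC than in control livers at 6 h. Their median log2 change was 0.02 in FBXL5ΔDC livers and -0.18 in control livers, beside 0.11 and -0.23 for the 72 other members. In FBXL5ΔDC livers they ran from -0.45 (Ndufs7) to 0.23 (Uqcrfs1), so they did not share a direction.

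Set against control livers at the same time, the 79 genes of FBXL5ΔDC livers were slightly higher at 6 h and slightly lower at 0 h. These comparisons use the same libraries as those above. At 6 h the median log2 difference, FBXL5ΔDC minus control, was 0.18, with 75 members above 0, but with no scaling factor between libraries it was -0.05, so the direction at 6 h rests on scaling. It was 0.12 without FBXL5ΔDC replicate 2, 0.29 without FBXL5ΔDC replicate 3 and 0.20 without control replicate 3 at 6 h. That setting moved the median of all tested genes to -0.23, against -0.01 with scaling factors. Relative to that median of all genes, the members stood at 0.20 with scaling factors and 0.18 without. At 0 h the median difference was -0.11, with 74 members below 0, and -0.25 with no scaling factor, or -0.11 and -0.10 relative to all genes. Of all 17585 tested genes, 8591 were above 0 at 6 h and 8912 below 0 at 0 h. No member was called by edgeR at 6 h (background 5.86%, with 1.35% higher and 4.51% lower) or at 0 h (background 0%). Unadjusted p-values below 0.05 were found for 18 members at 6 h, all higher, and for 1 at 0 h, Ndufa2, lower. Of all 17585 tested genes, 1529 were higher and 2469 lower at that level at 6 h, and 214 higher and 251 lower at 0 h. DESeq2 called 4 members higher at 6 h (Atp5b, Sdha, Sdhd and Uqcrfs1), or 5.06%, near its 4.31% of all genes, and 0 at 0 h. Without control replicate 3 at 6 h, edgeR called 7 members higher in FBXL5ΔDC livers at 6 h, among them Cox4i1, Cox6c, Cox7b, Ndufa1, Sdhd and Uqcrh, while 1873 genes in all were then called higher and 2376 lower. Those 7 were 8.86% of the members, below the 10.1% of all genes called higher in that fit. Without FBXL5ΔDC replicate 3 at 6 h it called 2, Sdhd and Uqcrfs1 (2.53%, against 0.678% of genes).

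Sdhd had the smallest adjusted p among the members at 6 h. Its levels were 197, 193 and 163 CPM in FBXL5ΔDC livers, all above the 145, 146 and 147.5 CPM in control livers, with a log2 difference of 0.34 ± 0.11 (edgeR, adjusted p = 0.0819). Uqcrfs1 followed, with no overlap between genotypes at 6 h and a log2 difference of 0.35 ± 0.12 (adjusted p = 0.103). Atp5b and Atp5a1 also did not overlap at 6 h, each with a log2 difference of 0.27 (adjusted p = 0.160 and 0.182). In all, 10 members lay above the control libraries at 6 h without overlap (12.7%, against 9.74% of tested genes) and none below. Cox6b2 had the largest difference, 1.06 ± 0.47, from 2.52, 1.36 and 1.48 CPM in FBXL5ΔDC livers against 0.606, 0.841 and 1.11 CPM in control livers (adjusted p = 0.197). At 0 h, 18 members lay below the control libraries without overlap (22.8%, against 5.8% of tested genes) and none above (against 5.94%). Sdha was among them, with 379, 379 and 389 CPM in FBXL5ΔDC livers and 400.1, 422 and 403 CPM in control livers. Over time, 32 members of control livers lay lower at 6 h than at 0 h without overlap (40.5%, against 13.4%). In FBXL5ΔDC livers 7 lay above (8.86%, against 24.2%).

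**Figure D4:**
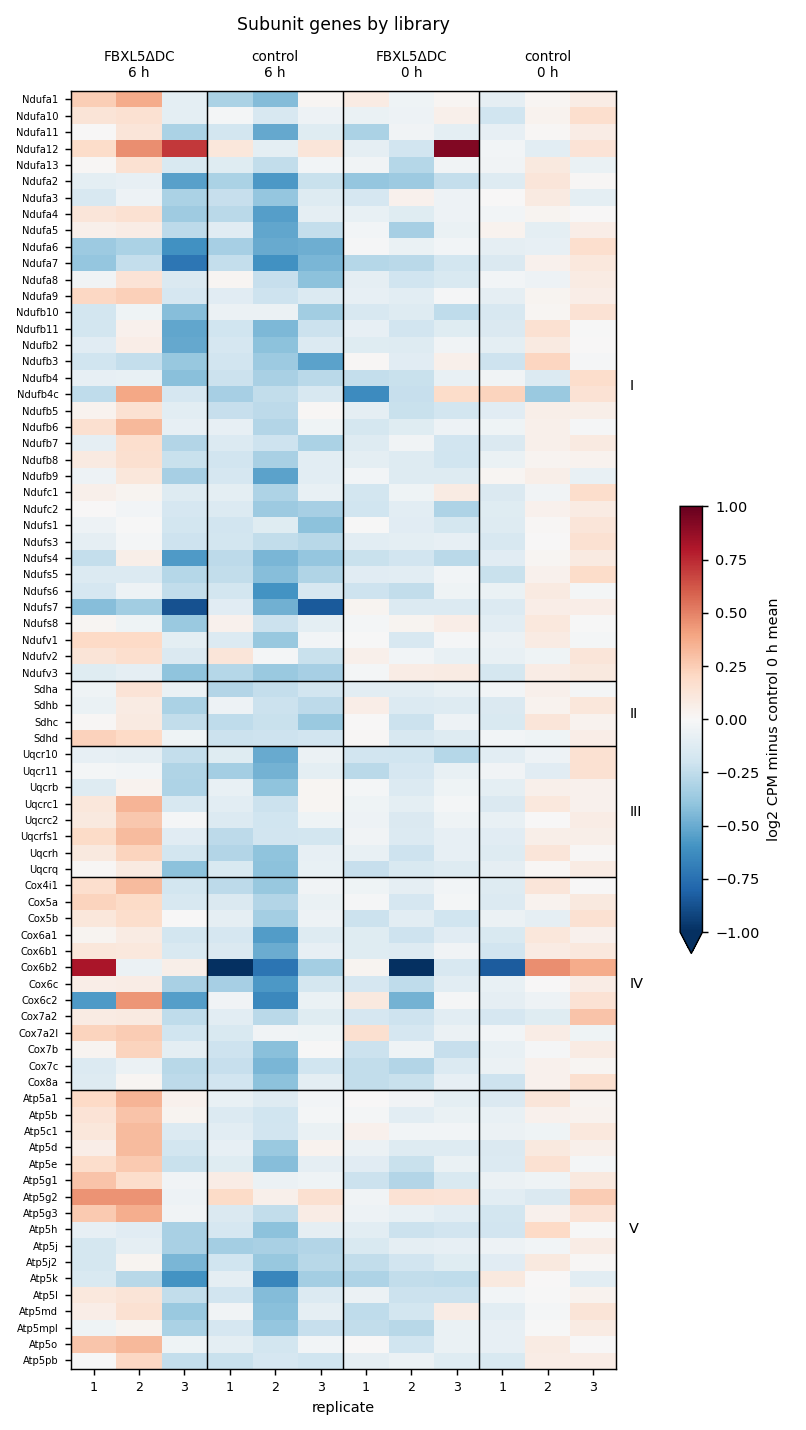
Log2 CPM of 78 of the 79 subunit genes (rows, by complex) in each of the 12 libraries (columns), minus the mean of control livers at 0 h. Colours end at 1 in either direction, past which only 2 Cox6b2 values lie. At 6 h FBXL5ΔDC replicate 2 is mostly red (median over the 79 members 0.12), replicate 1 mixed (0.02) and replicate 3 mostly blue (-0.22), as are the control livers (-0.16, -0.37 and -0.12).

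The partners of these proteins that are encoded in mitochondrial DNA were read separately. In FBXL5ΔDC livers 10 of 13 rose after acetaminophen (76.9%, against 15% of all tested genes called higher), with a median log2 change of 0.52. In control livers none was called, with a median of 0.02. At 6 h 10 of 13 were higher in FBXL5ΔDC than in control livers (76.9%, against 1.35% of all tested genes), with a median log2 difference of 0.63, and the interaction called none. With the compared groups alone in the fit, 0 genes of any kind were called higher at 6 h, so none of these genotype calls was kept. mt-Nd5, a proton-pumping subunit of complex I, had 9202, 10487 and 10487 CPM in FBXL5ΔDC livers at 6 h against 4585, 3906 and 6835 CPM in control livers at 6 h. It had 5310, 4927 and 5342 CPM in FBXL5ΔDC livers at 0 h and 4386, 3810 and 4227 CPM in control livers at 0 h. All FBXL5ΔDC libraries of 6 h lay above the rest, with log2 changes of 0.95 ± 0.18 over time (edgeR, adjusted p = 0.00193) and 0.98 ± 0.18 against control livers (adjusted p = 0.0113, 0.0513 without control replicate 1 at 6 h, and 0.143 with the compared groups alone in the fit). mt-Nd1, from the same arm, rose by 0.79 ± 0.15 in FBXL5ΔDC livers (adjusted p = 0.00169). The ratio of summed mitochondrially encoded to nuclear-encoded subunit transcripts, in which scaling factors cancel, was 9.11, 9.40 and 10.0 in FBXL5ΔDC livers at 6 h and 6.23, 6.58 and 7.60 in control livers at 6 h. It was 6.74, 6.90 and 7.20 in FBXL5ΔDC livers at 0 h and 6.43, 4.67 and 6.08 in control livers at 0 h. The FBXL5ΔDC libraries of 6 h did not overlap with any other group. Marker sums of some cell types also differed between groups: the 6 hepatocyte markers summed to 113020 to 146600 CPM in FBXL5ΔDC livers at 6 h, 72038 to 120060 CPM in control livers at 6 h, 83654 to 93570 CPM in FBXL5ΔDC livers at 0 h and 78267 to 85576 CPM in control livers at 0 h. The 4 endothelial markers summed to 155 to 198, 70.7 to 134, 66.1 to 80.7 and 64.9 to 78.1 CPM in the same order of groups. In that order the 4 stellate cell markers summed to 165 to 204, 93.4 to 149, 49.9 to 91.6 and 75.2 to 115 CPM, and the 3 cholangiocyte markers to 44.5 to 211, 17.7 to 45.8, 4.60 to 8.24 and 5.39 to 6.44 CPM. Alb made up most of the hepatocyte sums and Sox9 most of the cholangiocyte sums. At 6 h the stellate markers Reln and Dcn were higher in FBXL5ΔDC than in control livers. Neither was called (edgeR, adjusted p = 0.0608 and 0.15). Lrat went the other way, with means of 5.80 and 8.85 CPM, and Col1a1 had 4.04 and 4.07 CPM. The dendritic sums were 5.10 to 6.21, 4.12 to 7.38, 4.69 to 5.69 and 5.74 to 7.27 CPM in the same order. Kupffer cell sums were 109 to 192, 96.4 to 131, 98.4 to 130 and 82.2 to 102 CPM. Erythroid sums were 240 to 438, 318 to 368, 209 to 362 and 211 to 228 CPM. Neutrophil sums were 1.48 to 6.69, 1.39 to 2.54, 0.223 to 0.429 and 0.133 to 0.587 CPM. The part of cell types in the mitochondrially encoded result was not tested.

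Genes that build or feed the chain were read from lists of their own. Assembly factors put subunits, hemes and clusters together, and 10 of 54 were lower in FBXL5ΔDC livers after acetaminophen with none higher. That was 18.5%, near the 15.1% of all tested genes called lower. It was 6, 5, 4 and 5 factors without 6 h replicates 2 and 3 and without 0 h replicates 1 and 3. These were 7.41% to 11.1%, against 10.8% to 12.5% of all genes. Without 6 h replicate 1 it was 8 factors (14.8%, against 11.5%), and without 0 h replicate 2 it was 7 (13%, against 10.6%). With every library kept, the edgeR alternatives gave 14.8% to 24.5%, against 8.42% to 18.6% of all genes, each above its background. DESeq2 called 12 lower (22.2%, against 16.2% of the genes it gave an adjusted p). These fits were added for this list after seeing the data. By complex the 10 factors were 3 of 15 for complex I, 1 of 4 for complex II, 2 of 6 for complex III, 3 of 25 for complex IV and 1 of 4 for complex V. In control livers 1 of 54 was higher (Ndufaf4) and 1 lower (Lrpprc, counted here in the list for complex IV). The backgrounds there were 6.36% higher and 4.2% lower. The Ndufaf4 call was lost without 6 h replicate 1 or 2 (adjusted p = 0.103 and 0.0974) and without 0 h replicate 1, 2 or 3 (0.140, 0.124 and 0.0600), and the Lrpprc call without 0 h replicate 2 or 3 (0.107 and 0.0914). Tmem126b, a membrane factor for the complex I arm, had 7.91, 5.71 and 5.499 CPM in FBXL5ΔDC livers at 6 h, all below the 14.99, 15.9 and 16.9 CPM at 0 h. Its log2 change was -1.32 ± 0.26 there (edgeR, adjusted p = 0.00239) and -0.31 ± 0.25 in control livers (adjusted p = 0.508). Timmdc1 and Ecsit, which act in the same step, fell by 0.94 and 0.55 on the log2 scale in FBXL5ΔDC livers. These 3 were the factors called with each of the 6 libraries left out in turn, and the other 7 calls were each lost in at least 1 of those fits.

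Ubiquinone and cytochrome c carry electrons between the complexes. Among 19 carriers and further subunits, 2 rose and 5 fell in FBXL5ΔDC livers (36.8%, against 30.1% of all tested genes), and 1 rose and 2 fell in control livers (15.8%, against 10.6%). Coq8a, an atypical kinase-like protein needed for ubiquinone synthesis, had 82.5, 109 and 98.5 CPM in FBXL5ΔDC livers at 6 h against 316, 231 and 252 CPM at 0 h. Control livers had 95.3, 106 and 80.1 CPM at 6 h against 291, 266 and 235 CPM at 0 h. The groups did not overlap, with log2 changes of -1.46 ± 0.16 and -1.49 ± 0.16 (edgeR, adjusted p = 0.000103 and 0.000228). Cycs, cytochrome c, rose by 0.69 ± 0.14 in FBXL5ΔDC livers (adjusted p = 0.00291) and its change of 0.24 ± 0.14 in control livers was not called. Coq7, a hydroxylase of ubiquinone synthesis, rose by 0.74 ± 0.16 in FBXL5ΔDC livers, while Coq3, a methyltransferase of the same pathway, and Coq10a fell there by 1.02 and 0.94. Etfdh, which passes electrons from fatty acid oxidation to ubiquinone, had 321, 368 and 294 CPM in FBXL5ΔDC livers at 6 h, 205, 218 and 236 CPM in control livers at 6 h, 363, 376 and 346.5 CPM in FBXL5ΔDC livers at 0 h and 352, 375 and 394 CPM in control livers at 0 h. The control libraries of 6 h were the low ones, with a log2 change over time of -0.77 ± 0.12 (adjusted p = 0.00180). At 6 h the log2 difference, FBXL5ΔDC minus control, was 0.58 ± 0.12 (adjusted p = 0.0157). That call was lost without FBXL5ΔDC replicate 2 at 6 h (0.0598) and without control replicate 1 or 2 at 6 h (0.0730 and 0.0555).

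The remaining lists were mixed, with called shares to be read against the backgrounds of 30.1% in FBXL5ΔDC and 10.6% in control livers. Of 19 iron-sulfur cluster assembly genes, 4 rose and 1 fell in FBXL5ΔDC livers (26.3%), and 2 rose in control livers (10.5%), both near the background. Iba57, which acts late in cluster assembly, fell by 0.71 ± 0.14 in FBXL5ΔDC livers (edgeR, adjusted p = 0.00293). Of 18 citric acid cycle genes, 2 rose in FBXL5ΔDC livers (11.1%), and 1 rose and 2 fell in control livers (16.7%). At 6 h all 18 had a log2 difference above 0 between FBXL5ΔDC and control livers, with a median of 0.20 and none called. Of 78 mitochondrial ribosome genes, 3 rose and 5 fell in FBXL5ΔDC livers (10.3%), and 2 rose and 1 fell in control livers (3.85%). Among 12 chaperones and proteases Clpx, an unfoldase of the matrix, fell by 0.90 ± 0.20 in FBXL5ΔDC livers and by 1.33 ± 0.20 in control livers (adjusted p = 0.00424 and 0.00168). The chaperonin Hspd1 had 374, 362 and 343.5 CPM in FBXL5ΔDC livers at 6 h and 1345, 1057 and 432 CPM in control livers at 6 h, against 309, 398 and 437 CPM in control livers at 0 h. Control replicate 3 at 6 h was near the untreated level. Its log2 change in control livers was 1.31 ± 0.30 (adjusted p = 0.0189), a call lost without 0 h replicate 1, 2 or 3 (0.0790, 0.0668 and 0.0505). Without control replicate 3 at 6 h the Hspd1 change was 1.66 (adjusted p = 3.1e-05). No gene of any of these lists was called in the interaction.

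**Figure D5:**
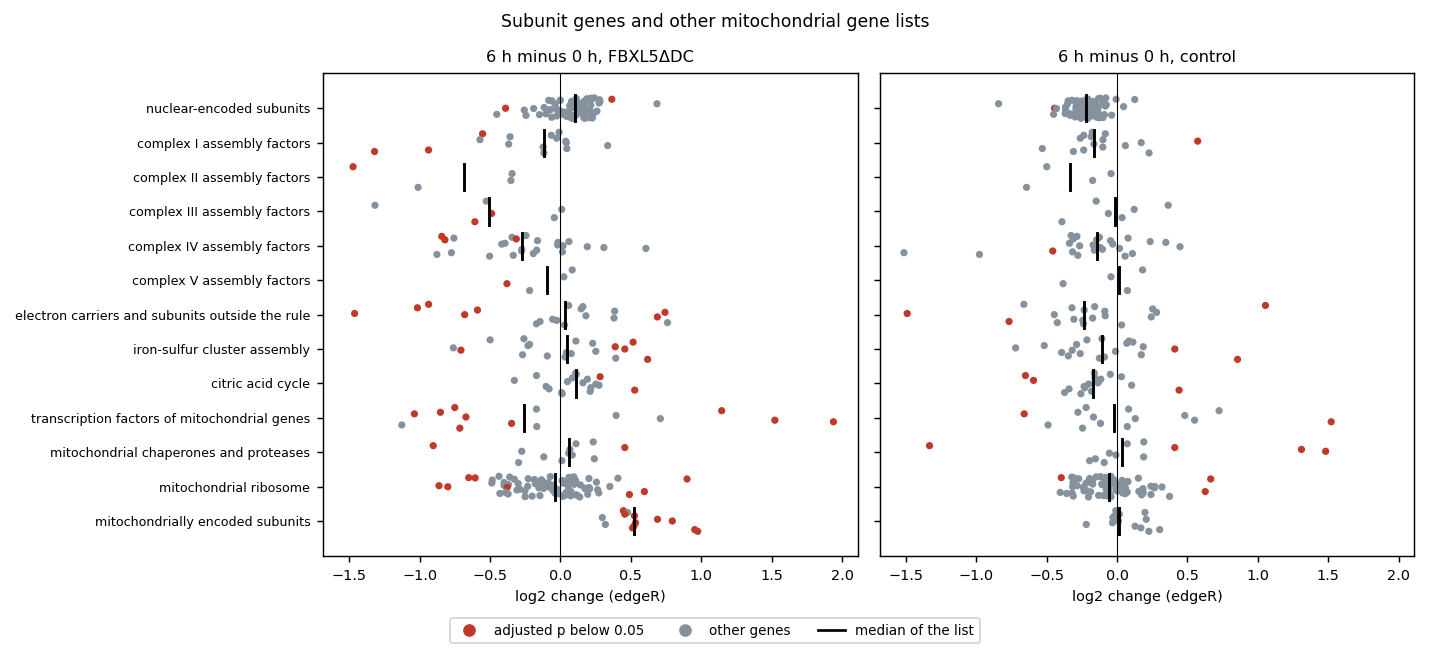
Log2 change, 6 h minus 0 h (x axis), of the 79 subunit genes and of the genes of 12 further mitochondrial lists (y axis), with 1 point per gene, called genes in red and the list median as a bar. The subunit genes lie in a narrow band in both panels, whereas 10 of 13 mitochondrially encoded subunits are red and above 0 in FBXL5ΔDC livers.

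Transcription factors of mitochondrial genes changed most often among the nuclear-encoded lists in FBXL5ΔDC livers, where 3 of 14 rose and 6 fell, a share of 64.3% against the background of 30.1%. In control livers 1 rose and 1 fell (14.3%, against 10.6%). None of the 14 was called between genotypes at 6 h or in the interaction. Pprc1, a coactivator that works with NRF1, had 49.7, 60.6 and 50.9 CPM in FBXL5ΔDC livers at 6 h against 12.5, 13.9 and 15.6 CPM at 0 h. In control livers it had 25.1, 30.04 and 65.9 CPM at 6 h against 14.2, 16.4 and 11.6 CPM at 0 h. Replicate 3 was the highest of the control livers, and neither genotype overlapped between times, with log2 changes of 1.94 ± 0.30 and 1.52 ± 0.30 (edgeR, adjusted p = 0.000747 and 0.00816). Without that control replicate the control change was 0.97 (adjusted p = 0.00196). Ppargc1b (PGC-1beta) rose by 1.52 ± 0.30 and Gabpb1, the partner of the DNA-binding subunit GABPA, by 1.14 ± 0.24 in FBXL5ΔDC livers. Yy1, a zinc finger factor, fell to 54.1, 54.2 and 50.3 CPM at 6 h in FBXL5ΔDC livers, against 90.6, 81.1 and 88.4 CPM at 0 h (log2 change -0.71 ± 0.13, adjusted p = 0.00142). In control livers its change of -0.25 ± 0.13 was not called. Polrmt, the mitochondrial RNA polymerase, and Mterf4 also fell in FBXL5ΔDC livers, by 0.67 and 1.04 on the log2 scale. Nrf1 and Gabpa themselves were not called.

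Promoters of 65 members (70 promoters of 300 bases, 250 before to 50 after the RefSeq start, GRCm38.p6) were searched on both strands for the binding sequences of 3 of these factors. The NRF1 motif, whose letters are the capitals in its windows and read the same on both strands, was in 5 of 65 members (7.69%), against 2.07% of 11827 tested genes with a promoter. The YY1 motif AAGATGGC was in 10 (15.4%), against 4.84% of tested genes. All 10 belonged to complexes I and V, with 7 of 32 in complex I and 3 of 15 in complex V. Counted from the start, the match began at -88 in Atp5j and at -3 in Atp5pb. In the others it began 23 to 39 bases after the start. The GABPA motif CCGGAAGT was in 5 (7.69%), against 8.18%. No member held more than 1 of these motifs, and a match describes these letters only. Windows of 30 bases are shown for all 5 NRF1 members and for 4 YY1 members, with the motif in capitals. The YY1 members are some that the text describes or that differ in strand or position. Windows of the 5 GABPA members are not shown. Whether any of these factors acted on the members was not tested.
Uqcrc1, NRF1, chr9:108936668-108936697, plus strand: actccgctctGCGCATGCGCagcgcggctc
Ndufa11, NRF1, chr17:56717692-56717721, plus strand: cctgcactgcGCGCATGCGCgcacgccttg
Cox6a1, NRF1, chr5:115349101-115349130, minus strand: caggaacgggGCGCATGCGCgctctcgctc
Atp5g2, NRF1, chr15:102671070-102671099, minus strand: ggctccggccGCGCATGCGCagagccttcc
Atp5k, NRF1, chr5:108434430-108434459, minus strand: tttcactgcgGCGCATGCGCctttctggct
Ndufs7, YY1, chr10:80249462-80249491, plus strand: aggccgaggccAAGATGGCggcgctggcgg
Ndufs4, YY1, chr13:114388045-114388074, minus strand: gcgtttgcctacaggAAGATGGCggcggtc
Atp5j, YY1, chr16:84835046-84835075, minus strand: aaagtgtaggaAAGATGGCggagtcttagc
Atp5pb, YY1, chr3:105959248-105959277, minus strand: atgtgcgagcgGCCATCTTgctcctgcccc
In Atp5pb the motif lies on the other strand and is printed as its reverse complement. None of these genes was called by edgeR in any comparison, and DESeq2 called Atp5j lower in control livers.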

How the data were processed

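RNA of 12 livers was sequenced. Per the submitters' processing notes, Trim Galore 0.6.6, HISAT2 2.2.1 and the mm10 build were used; the counting program and its strand setting are not given in the sources used here. The authors deposited estimated counts per gene as whole numbers. Values from 1 to 40 were multiples of 4 in 26.5% to 28.5% of cases, against 25% if these values were equally frequent. They need not be, so this check cannot show whether the counts are raw. The design for raw counts was kept with the counts as deposited. edgeR 4.0.16 (R 4.3.3, limma 3.58.1) fitted the 4 groups together by quasi-likelihood after its filter on low counts, with TMM scaling (factors 0.855 to 1.14), and p-values were adjusted by Benjamini-Hochberg over 17585 genes. A call means an adjusted p below 0.05. The common dispersion was 0.153 with 8 residual degrees of freedom. CPM are scaled by TMM; log2 CPM uses a prior count of 2. Gene lengths and positions came from GENCODE vM21 (GRCm38).

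Members and gene lists were chosen with earlier results of these data known. Named were any member, with full values for the most abundant of complexes II to V by counts, up to 4 called rises and 4 falls per comparison and the tissue isoforms, and from each other list up to 3 called rises and 3 falls of smallest adjusted p per comparison; Ndufs7, Ndufv3, Sdhd, Uqcrfs1, Cox5b, Atp5j and Ndufa12, and Tmem126b, Etfdh, Hspd1 and Yy1, were given per library after their values were seen. Alternatives were RLE and upper quartile scaling, no filter, no mitochondrially encoded genes in the library totals, a replicate block, a fit of the compared groups alone, DESeq2 1.42.0 and each library left out. A fit with no scaling factor was chosen after seeing the data. Same-numbered replicates did not deviate together, so the numbers were not used as pairs. The values of 1 member of complex I are not reported here.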

Additional observations from a re-analysis of the deposited data

How the results depend on the processing

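With no scaling factor between libraries, the median log2 difference of the members, FBXL5ΔDC minus control, was -0.046 at 6 h over all complexes, -0.073 for complex I, 0.021 for II, -0.023 for III, 0.038 for IV and -0.033 for V. At 0 h it was -0.25 over all complexes, -0.24 for I, -0.23 for II, -0.25 for III, -0.30 for IV and -0.25 for V. The cause was not tested. Of 64 results on named genes, 36 kept their call under every setting that keeps all libraries, and 30 also with each library left out.

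Calls among the members were few and moved with the settings. In FBXL5ΔDC livers after acetaminophen, the members called higher (1) became 0 with no filter on low counts, 0 with no scaling factor and 2 with the compared groups alone in the fit, and ranged from 0 to 5 with a library left out. Those called lower (1) became 2 with no scaling factor and 2 with the compared groups alone, and ranged from 0 to 1. Without FBXL5ΔDC replicate 3 at 6 h, 5 were higher and 0 lower. In control livers the members called lower (1) became 2 with RLE size factors, 4 with upper quartile scaling, 0 with the compared groups alone and 7 with DESeq2, and ranged from 0 to 3. Between genotypes at 6 h those called higher (0) became 4 with DESeq2 and ranged from 0 to 7. Over all genes, 39.8% of calls in control livers were lower, and 50.7% with upper quartile scaling. Between genotypes at 6 h 76.9% of calls were lower, 91.9% with no scaling factor and 66.6% with DESeq2. With the compared groups alone, 0 genes were called higher and 6 lower there, against 238 and 793, so the genotype calls on single genes at 6 h rest on the spread shared by all 4 groups.

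The replicate numbers share only a number: correlations of same-numbered deviations ran from -0.0614 to 0.0441 over 18 pairs. With the replicate block, members called lower in control livers became 0, with an adjusted p of 0.0561 for Ndufa6, and both calls in FBXL5ΔDC livers remained.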
